A study of Mus musculus with 31 samples.

Results

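Saa1, Saa2, Saa3, Hp and Ptx3 are acute-phase genes, and they were taken by symbol from the count table of each mouse, as 5 of the 22609 gene symbols listed. Saa1, Saa2 and Saa3 encode serum amyloid A proteins, Hp encodes haptoglobin, and Ptx3 encodes pentraxin 3. The acute-phase response is the change in secreted proteins that follows injury or infection, in which cytokines such as interleukin 6, interleukin 1 and tumour necrosis factor act on the liver and on local tissue through STAT3, C/EBP and NF-kappaB transcription factors. Saa1 and Saa2 are known mainly as liver genes, whereas Saa3 is known from macrophages, fat and other tissues outside the liver. Haptoglobin binds free haemoglobin and is made by liver, fat and neutrophils, and pentraxin 3 is a pattern recognition protein of macrophages, endothelium and stromal cells that binds complement C1q.

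The libraries were bulk RNA-seq of the masseter muscle (MM) of adult male C57BL/6J mice, 1 library per mouse, 31 mice in all, and no mouse carried a genetic modification. Muscle inflammation was modelled by complete Freund's adjuvant (CFA, mixed 1:1 with PBS), and tissue damage by collagenase type 2 (Col), an enzyme that digests extracellular matrix, each injected into the left MM. In the CFA experiment 1d post-CFA, 5d post-CFA and vehicle had 3 mice each. In the Col experiment there were 4 mice in each of the 0.2U groups that the labels call 1C and RPC, 4 mice at 2d, 3 at 6d and 4 at 12d post-Col at 10U, and 3 vehicle-treated mice. Vehicle was PBS, and the day on which vehicle-treated mice were collected is not given in the sources used here. The days of the 10U groups are those of the labels, whereas the text of the paper gives days 1 and 14 for what the labels call 2 and 12. Neither 0.2U group has a day in its label, so both keep their names.

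Each library held 14843778 to 29076671 gene reads (median 20834472), and levels are given as counts scaled to library size (CPM) by edgeR's TMM method. A count of 3 was taken as the floor of detection, which was 0.103 to 0.229 CPM depending on the library. Skeletal muscle marker genes summed to 29992 to 179668 CPM in all 31 libraries. Transcripts of 8 salivary gland markers were present as well and varied between mice of 1 group, summing to 85.5, 144342 and 39338 CPM in vehicle-treated mice of the Col arm. They summed to 128973 to 161759 CPM in the 5d post-CFA mice against 103, 109 and 13454 CPM in their vehicle-treated mice, and to 11.2 to 33.5 CPM at 6d post-Col. The share of reads that the counting left as ambiguous was 0.331 to 0.399% in the 11 libraries of the 10U groups and 0.0757 to 0.138% in the other 20, so a difference in counting and the 10U treatment cannot be told apart. As these are bulk samples, fewer cells of a type and less RNA per cell cannot be told apart either.

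Saa1, Saa2 and Saa3 lie close together on mouse chromosome 7, and their sequences show why they are described together and how far their reads can be separated. On build mm9, which the counts use, Saa1 spans chr7:53995871-53998350 on the minus strand, Saa2 chr7:54007203-54009684 on the plus strand and Saa3 chr7:53967368-53971046 on the minus strand. Hp spans chr8:112099030-112103072 on the minus strand and Ptx3 chr3:66023809-66029728 on the plus strand. The first 90 coding bases of the serum amyloid A genes (GENCODE vM1 transcripts, with capitals at bases that differ from Saa1) follow.
Saa1: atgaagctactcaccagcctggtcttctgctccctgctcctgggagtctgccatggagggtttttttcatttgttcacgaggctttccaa
Saa2: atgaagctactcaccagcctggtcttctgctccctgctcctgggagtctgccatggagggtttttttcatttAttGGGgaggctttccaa
Saa3: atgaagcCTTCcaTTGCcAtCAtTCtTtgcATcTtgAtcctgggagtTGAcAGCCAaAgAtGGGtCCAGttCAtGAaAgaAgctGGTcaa
Saa2 differed from Saa1 at 4 of these 90 bases and Saa3 at 44. Over the whole coding sequence Saa1 and Saa2 were identical at 95.1% of 369 bases, whereas Saa1 and Saa3 were identical at 77.1% of 384 aligned positions. Of all windows of 50 bases, the read length, 10.8% in Saa1, 9.09% in Saa2 and 1.87% in Saa3 occurred in another gene's transcripts, and for Hp and Ptx3 this share was 0%. Reads that align to more than 1 place are not in the counts, so the counts of Saa1 and Saa2 are incomplete and their split is uncertain. No exon base of the 5 genes overlaps an exon of another gene, although Ptx3 lies inside the Veph1 gene on the opposite strand. Whether strand was used in the counting is not given, and Veph1 was at 0.652 CPM or less in every library.

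The 250 bases before the transcription start of Saa1, Saa2, Saa3 and Ptx3 are shown for the 4 members with an entry, to set the promoters of genes with their highest means at 1d post-CFA or 2d post-Col side by side (RefSeq, build GRCm38.p6, which is not the build of the counts). Each is written 5′ to 3′ in the direction of the gene, and the names chr7.0 and chr3.0 stand for chromosomes 7 and 3. Capitals mark matches, on either strand, to TTNNGNAA, the inner letters of a C/EBP site.
Saa1, chr7.0:46742981-46743230, minus strand: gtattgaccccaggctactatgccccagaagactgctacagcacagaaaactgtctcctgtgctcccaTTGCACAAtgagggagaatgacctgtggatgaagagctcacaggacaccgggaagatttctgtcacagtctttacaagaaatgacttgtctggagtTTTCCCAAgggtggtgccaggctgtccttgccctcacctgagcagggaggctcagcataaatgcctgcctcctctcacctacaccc
Saa2, chr7.0:46751583-46751832, plus strand: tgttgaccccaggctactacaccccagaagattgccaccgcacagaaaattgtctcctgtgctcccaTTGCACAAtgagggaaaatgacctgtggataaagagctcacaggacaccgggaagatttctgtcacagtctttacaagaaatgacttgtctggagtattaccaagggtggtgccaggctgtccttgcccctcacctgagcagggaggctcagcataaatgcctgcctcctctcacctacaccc
Saa3, chr7.0:46715677-46715926, minus strand: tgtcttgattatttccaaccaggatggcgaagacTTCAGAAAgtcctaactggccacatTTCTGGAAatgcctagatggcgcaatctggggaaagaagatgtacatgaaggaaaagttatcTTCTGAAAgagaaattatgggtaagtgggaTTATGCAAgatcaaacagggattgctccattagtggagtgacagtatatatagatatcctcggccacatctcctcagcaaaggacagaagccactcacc
Ptx3, chr3.0:66219637-66219886, plus strand: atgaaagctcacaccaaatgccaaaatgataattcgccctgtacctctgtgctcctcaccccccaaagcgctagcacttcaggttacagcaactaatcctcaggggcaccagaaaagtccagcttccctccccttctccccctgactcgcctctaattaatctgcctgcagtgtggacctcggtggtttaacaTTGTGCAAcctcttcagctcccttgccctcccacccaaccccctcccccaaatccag
The stretches of Saa1 and Saa2 were identical at 94.8% of 251 aligned positions, and those of Saa1 and Saa3 at 52.2% of 295. The 8-letter C/EBP core was found 4 times before Saa3, 2 times before Saa1 and once each before Saa2 and Ptx3, and 36.9% of 32851 mouse promoters hold it in the same 250 bases. The longer form TTNNGNAAT, which contains the core, was searched first and was found before Saa1 and Saa2, against 10.2% of the promoters. A kappaB site, GGGNNNNNCC, was found 78 to 69 bases before Saa1 and 79 to 70 bases before Saa2, against 45.8% of the promoters, and a STAT site, TTCNNNGAA, which 7.02% of promoters hold, was found before none of the 4. These matches describe letters in a window, and binding was not measured.

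The 5 genes differed widely in level and in how they were spread over the mice. Per length, Hp was the most abundant, with a median RPKM (reads scaled to exon length and library size) of 51.8 over the 31 mice, followed by Ptx3 at 5.16 RPKM, while Saa1, Saa2 and Saa3 had medians of 0.356, 0.0763 and 0.362 RPKM. Hp and Ptx3 had at least 10 counts in all 31 libraries, Saa3 in 12, Saa1 in 7 and Saa2 in 3. A single mouse, replicate 1 at 1d post-CFA, held 69.5% of all 1179 counts of Saa1, 58.9% of 158 of Saa2 and 74.1% of 5239 of Saa3. The counts of Hp and Ptx3 were not concentrated in this way, with at most 14.4% and 13.3% in 1 mouse. Serum amyloid A expression in MM was thus near the floor in most mice and rested on a few of them, and Saa4, a family member made constitutively in liver, never exceeded 5 counts.

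**Figure D1:**
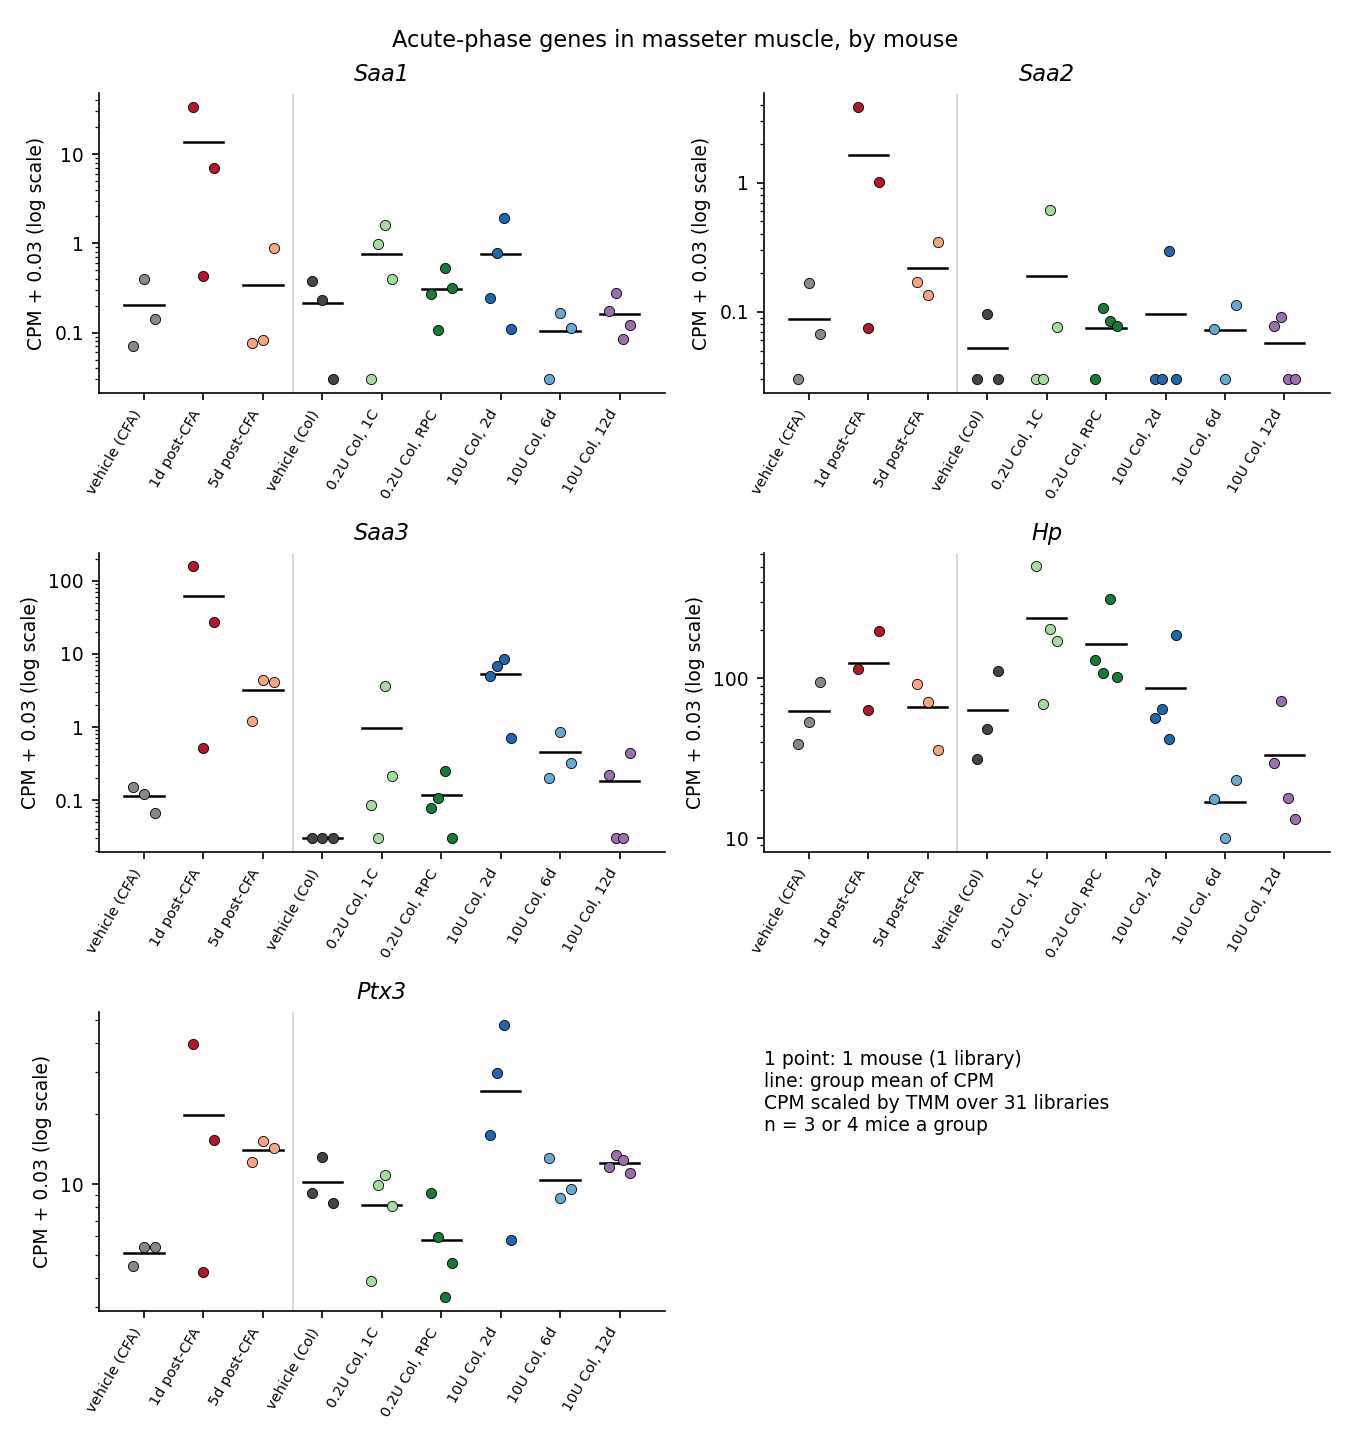
Level of each member in each of the 31 mice, with the 9 groups along the horizontal axis and TMM-scaled CPM + 0.03 on a logarithmic vertical axis, 1 panel a gene. Points are mice and lines are group means, and Saa3 is above 4 CPM in 2 mice of the 1d post-CFA group, 2 of the 5d post-CFA group and 3 of the 2d post-Col group.

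At 1d post-CFA, the 3 serum amyloid A genes reached their highest levels of the series, in 2 of the 3 mice. Saa3 was at 159, 0.489 and 27.1 CPM (3882, 11 and 607 counts) against 0.121, 0.0912 and 0.0368 CPM (3, 2 and 1 counts) in the vehicle-treated mice. All 3 CFA mice were above all vehicle-treated mice, but replicate 2 was far below the other two. The mean of 62.1 ± 84.8 CPM (SD, n = 3) compared with 0.0830 ± 0.0427 CPM (n = 3), and the ratio of summed counts scaled to library size was 799 (95% exact interval for counting error 367 to 2178). Without replicate 1 the fold of means was 166. Saa3, which passed the low-count filter through its CFA mice alone, had the second largest log2 fold change of 13944 tested genes, 9.45 (SE 2.09), with an adjusted p of 0.924 in edgeR's quasi-likelihood test, in which the spread among the 3 mice counts as error. DESeq2's Wald test, the tool of the study, gave 9.52 with an adjusted p of 0.000192.

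Saa1 followed Saa3 mouse by mouse, at 33.5, 0.400 and 6.87 CPM (819, 9 and 154 counts) against 0.0404, 0.365 and 0.110 CPM (1, 8 and 3 counts). The groups did not overlap, although replicate 2 at 0.400 CPM was next to the highest vehicle-treated mouse at 0.365 CPM. The fold of means was 79.1, and 21.2 without replicate 1. Saa2, the nearest copy of Saa1, was at 3.80, 0.0445 and 0.982 CPM (93, 1 and 22 counts) against 0, 0.137 and 0.0368 CPM (0, 3 and 1 counts), so that the groups overlapped. Its ratio of summed counts was 30.9 (counting interval 11.7 to 115). The fold of means was 27.8, and 8.87 without replicate 1. Neither gene had 10 counts in 3 of the 6 libraries, and they were not tested in the filtered fit. With no filter on low counts, the log2 fold change was 6.27 for Saa1 (SE 1.52) and 4.70 for Saa2 (SE 1.51), both with an adjusted p of 0.892 in edgeR's test. Adding the counts of both genes, because their reads are hard to split, gave 6.03 (SE 1.56) with an adjusted p of 0.924 in edgeR's test.

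Hp and Ptx3, which were expressed in MM without treatment, had smaller fold changes at 1d post-CFA. Hp was at 115, 63.0 and 199 CPM against 38.6, 53.3 and 95.2 CPM, and the groups overlapped. Its log2 fold change was 1.002 (SE 0.50, edgeR adjusted p = 0.924). Ptx3 was at 39.7, 4.22 and 15.4 CPM against 4.48, 5.38 and 5.37 CPM, so that replicates 1 and 3 were above and replicate 2 below every vehicle-treated mouse. Its log2 fold change was 1.94 (SE 0.68, edgeR adjusted p = 0.924). In edgeR's test none of the 3 tested members was a differentially expressed gene (DEG), by the criteria of the study (adjusted p below 0.05, more than 2-fold, and RPKM above 1 on average in either group). This was so for all genes, as 0% of those tested were DEGs, while 588 had an unadjusted p under 0.05 and DESeq2 called 53 genes, Saa3 among them. By an exact two-sided permutation test, 3 mice against 3 cannot reach a p below 0.1, the value that Saa1 and Saa3 took. Replicate 2 also had the lowest sum of 8 macrophage and monocyte markers of its group, 200 CPM against 552 and 433 CPM, and of 9 neutrophil markers, 90.2 CPM against 153 and 661 CPM. In the vehicle-treated mice these sums were 73.2, 201 and 350 CPM and 3.997, 7.43 and 951 CPM, every marker of both lists was detected, and the part of these cells in the result was not tested.

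Genes known to act upstream of the acute-phase response were described from lists of inducing cytokines, their receptors, transcription factors and feedback genes. At 1d post-CFA, 0 of 4 tested cytokine genes were DEGs, at a median log2 value of 3.55, all genes being at −0.01. Il1b, which encodes interleukin 1 beta, was at 4.83 (SE 1.35) and Tnf at 3.22 (SE 0.91). Of 9 transcription factor and feedback genes 0 were DEGs (median 0.92), among them Socs3, an inhibitor of STAT3 signalling that STAT3 itself induces, at 3.83 (SE 0.82), and Stat3 at 1.77 (SE 0.51). Of 23 other acute-phase genes 12 were tested and 0 were DEGs (median 1.45), with Serpina3n, a protease inhibitor, at 3.81 (SE 0.81) and Mt2, a metallothionein, at 5.28 (SE 1.19). The edgeR adjusted p of each of these named genes was 0.924. All 4 cytokine and all 9 transcription factor and feedback genes had a positive fold change, and 10 of 12 acute-phase genes did. Of the 8 listed cytokine genes, 1 had enough counts when the vehicle groups alone were compared. The other cytokine genes passed the low-count filter only with counts of CFA mice, so their direction and median are not read as a result.

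At 5d post-CFA, Saa3 and Ptx3 were up-regulated, whereas Saa1, Saa2 and Hp overlapped with vehicle. Saa3 was at 1.17, 4.33 and 4.12 CPM (25, 83 and 78 counts) against 0.121, 0.0912 and 0.0368 CPM in the vehicle-treated mice. The groups did not overlap, and the ratio of summed counts was 38.5 (counting interval 17.4 to 106). Its log2 fold change was 5.24 (SE 0.71, edgeR adjusted p = 0.0368). Saa3 passed the low-count filter through its 3 CFA mice alone, so that only a difference could have brought it into the test. Ptx3 was at 12.5, 15.2 and 14.2 CPM against 4.48, 5.38 and 5.37 CPM, a close group with no overlap. Its mean of 13.97 ± 1.401 CPM (SD, n = 3) compared with 5.08 ± 0.517 CPM (n = 3), and its log2 fold change was 1.501 (SE 0.20, edgeR adjusted p = 0.0352). Ptx3 and Saa3 were thus DEGs among 3 tested members, and 0.920% of all tested genes were. As Saa3 could enter the test only through its CFA mice, the number of members called is not read against that share.

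Hp was at 92.3, 71.5 and 35.5 CPM at 5d post-CFA, overlapping with its vehicle-treated mice although replicate 3 was below all of them, with a log2 fold change of 0.12 (SE 0.43, edgeR adjusted p = 0.938). Saa1 was at 0.0468, 0.0521 and 0.846 CPM (1, 1 and 16 counts), and Saa2 at 0.140, 0.104 and 0.317 CPM, which leaves replicate 3 as the mouse with most of both. The calls of Saa3 and Ptx3 were lost when replicate 1 or replicate 2 of the vehicle-treated mice was left out, with adjusted p-values from 0.119 to 0.160, and that of Ptx3 also without any 1 of the CFA mice, where Saa3 no longer had counts enough for the test, while the log2 fold changes stayed between 4.90 and 5.60 and between 1.40 and 1.58. With both vehicle groups pooled, Ptx3 had a log2 fold change of 0.89 and an edgeR adjusted p of 0.392. The salivary gland markers and 6 epithelial markers separated these groups as well, the latter at 206 to 273 CPM against 11.5 to 71.6 CPM, and the hepatocyte list at 24.2 to 35.7 CPM against 0.456 to 2.502 CPM, with Apoa1 at 0 and at most 2 counts of Alb. The part of gland tissue in the result of Saa3 and Ptx3 was not tested.

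Of the other acute-phase genes, 1 of 12 was up-regulated at 5d post-CFA and 0 were down-regulated, at a median log2 value of 0.41, all genes being at −0.02. This was Cfb, complement factor B, at 2.86 (SE 0.47, edgeR adjusted p = 0.0461), and Serpina3n was at 1.67 (SE 0.30, adjusted p = 0.0570 in edgeR's test). No gene of the cytokine, receptor, or transcription factor lists was a DEG. Socs3 was at 1.03 (SE 0.32), Tnf at 2.55 (SE 0.79), and Cebpb, a C/EBP factor that drives acute-phase genes, at −0.999 (SE 0.32), with edgeR adjusted p-values from 0.190 to 0.211.

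Between 1d and 5d post-CFA, Saa1 and Saa3 were lower at the later day without passing the test. The log2 fold change of 5d against 1d was −5.36 for Saa1 (SE 1.59, edgeR adjusted p = 0.110) and −4.21 for Saa3 (SE 1.51, edgeR adjusted p = 0.176), and the groups overlapped for both genes through replicate 2 at 1d. Hp was at −0.89 and Ptx3 at −0.45 (edgeR adjusted p = 0.355 and 0.749). None of 4 tested members was a DEG, where 4.21% of all genes were. Without that replicate 2, Saa1 at −6.00 and Saa3 at −4.85 were both DEGs, with edgeR adjusted p-values of 0.0126 and 0.0103. This was the only such fit that passed, of 3 for Saa1 and 6 for Saa3. Over these fits Saa1 ranged up to −4.84 and Saa3 up to −2.14, with edgeR adjusted p-values up to 0.347 and 0.414.

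**Figure D2:**
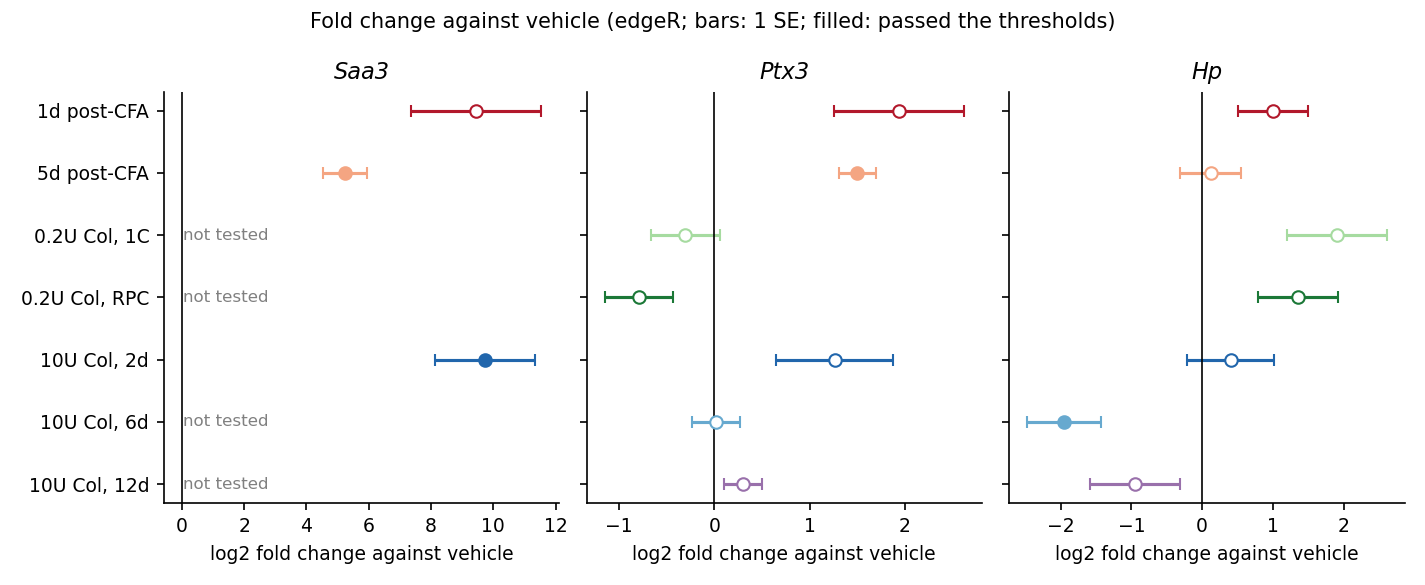
Log2 fold change against vehicle (horizontal axis, from edgeR) of Saa3, Ptx3 and Hp in the 7 treated groups (rows), with bars of 1 SE and filled points for DEGs. The filled points are Saa3 and Ptx3 at 5d post-CFA, Saa3 at 2d post-Col and Hp at 6d post-Col, and the Saa3 point at 2d post-Col depends on the prior count because its vehicle-treated mice were at 0 counts.

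In the 0.2U Col groups Hp had its highest single values and group means of the series, without passing the test, and Saa3 was at 4 counts or fewer in all but 1 of the 8 mice. In group 1C, Hp was at 505, 69.5, 204 and 171 CPM against 31.03, 48.5 and 112 CPM in the vehicle-treated mice, with 3 of 4 mice above all vehicle-treated mice. In group RPC, Hp was at 131, 107, 316 and 103 CPM, and 2 of 4 mice were above all vehicle-treated mice. The means of 238 ± 188 CPM (SD, n = 4) and 164 ± 102 CPM (n = 4) compared with 63.7 ± 42.4 CPM (n = 3). The log2 fold changes were 1.90 (SE 0.71, edgeR adjusted p = 0.348) and 1.36 (SE 0.57, edgeR adjusted p = 0.362), and neither difference passed the test. Exact two-sided permutation tests gave 0.114 and 0.171, where 4 mice against 3 cannot go below 0.0571.

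Ptx3 was at 3.84, 9.92, 10.9 and 8.05 CPM in group 1C against 9.19, 13.1 and 8.28 CPM in the vehicle-treated mice. The groups overlapped, with 2 of 4 mice below every vehicle-treated mouse. In group RPC it was at 9.14, 5.96, 3.27 and 4.62 CPM, with 3 of 4 mice below every vehicle-treated mouse and a log2 fold change of −0.80 (SE 0.36, edgeR adjusted p = 0.383). Saa3 was at 0.0556, 0, 3.56 and 0.186 CPM in group 1C, so that replicate 3, with 67 counts, stood far above the other mice, of which the highest had 4 counts, and at most 0.222 CPM in group RPC, while all 3 vehicle-treated mice were at 0 counts. The same replicate 3 had the highest Saa1 and Saa2 of its group, 1.59 and 0.584 CPM. Of the 2 members with enough counts, 0 were DEGs in group 1C and 0 in group RPC, where 0% and 0% of all tested genes were. Unadjusted p-values under 0.05 numbered 1819 and 1923, and DESeq2 called 299 and 152 genes, with no member among them.

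Markers of other tissues were summed in the same mice, and none of the markers tested was a DEG in either 0.2U group. The sum of 7 adipocyte markers was 528 to 1973 CPM in group 1C and 791 to 1190 CPM in group RPC against 393 to 673 CPM, with every marker detected. The 2 brown adipocyte markers, Ucp1 and Cidea, summed to 10.9 to 713 CPM and 61.2 to 174 CPM against 0.654 to 5.51 CPM. Of 6 hepatocyte markers, Alb, which encodes albumin and defines hepatocytes, had at most 3 counts in either 0.2U group and 0 in the vehicle-treated mice, and the sum of the list, 16.4 to 127 CPM, came almost wholly from Ttr. The mouse with the most Hp, replicate 1 of group 1C, also had the highest sum of 6 epithelial markers, 468 CPM, but not the highest adipocyte sum. The part of fat or epithelium in the level of Hp was not tested.

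At 2d post-Col (10U), Saa3 was up-regulated and was detected in every mouse, whereas it was absent from the counts of the vehicle-treated mice. It was at 4.91, 6.90, 8.54 and 0.667 CPM (91, 121, 192 and 17 counts) against 0, 0 and 0 counts. Replicate 4 was well below the other 3 mice but above the floor. The mean of 5.25 ± 3.399 CPM (SD, n = 4) was at least 33.9-fold higher than the vehicle level, computed against the mean floor of 3 counts per library in these mice, and at least 26.8-fold to 43.8-fold with each Col mouse left out in turn. The adjusted p was 0.0483 in edgeR's test, for which Saa3 qualified through its Col mice alone, and it was the lowest that the exact two-sided permutation test allows, 0.0571. The call was lost without any 1 mouse other than replicate 4, with edgeR adjusted p-values from 0.0523 to 0.191.

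Ptx3 was at 16.3, 29.9, 47.7 and 5.77 CPM at 2d post-Col against 9.19, 13.1 and 8.28 CPM, so that replicates 1 to 3 were above and replicate 4 below all vehicle-treated mice. Its log2 fold change was 1.26 (SE 0.62, edgeR adjusted p = 0.189). With each of the 7 mice left out in turn it ranged from 0.72 to 1.59, with edgeR adjusted p-values up to 0.422. Only 1 of these fits passed, that without replicate 4 (1.59, edgeR adjusted p = 0.0198). Saa1 was at 0.216, 0.741, 1.87 and 0.0785 CPM (4, 13, 42 and 2 counts) against 0.349, 0.200 and 0 CPM, and Saa2 had 6 counts in replicate 3 and 0 in the other 3 mice. In the order of the 4 mice, replicate 3 was the highest and replicate 4 the lowest for Saa1, Saa3 and Ptx3. Hp had another order, at 56.3, 64.1, 41.8 and 186 CPM, with replicate 3 lowest and replicate 4 highest, and a log2 fold change of 0.41 (SE 0.62, edgeR adjusted p = 0.668). Saa3 was thus the 1 DEG of 3 tested members, and 1.77% of all tested genes were DEGs. As Saa3 could enter the test only through its Col mice, this number is not read against that share.

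Replicate 3 at 2d post-Col also had the highest sum of macrophage and monocyte markers of its group, 1192 CPM against 494 to 718 CPM, and vehicle-treated mice had 89.1 to 422 CPM. The neutrophil markers summed to 94.2 to 376 CPM at 2d against 364, 14.9 and 1499 CPM in the vehicle-treated mice, with all 9 detected. Replicate 3, with the least Hp, had the lowest epithelial and salivary gland sums of the group, 8.05 and 26.6 CPM, and replicate 4, with the most Hp, the highest, 195 and 115181 CPM. The part of these cells in the levels of Saa3, Ptx3 and Hp was not tested.

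Of the transcription factors and cytokines of the acute-phase response, 2 C/EBP genes passed the test at 2d post-Col (10U). Of 9 transcription factor and feedback genes 2 were up-regulated and 0 down-regulated, at a median log2 value of 1.45, all genes being at 0.02. These were Cebpb at 3.10 (SE 0.36, edgeR adjusted p = 0.0184) and Cebpd, a related factor, at 1.77 (SE 0.29, edgeR adjusted p = 0.0408). Socs3 was at 3.52 (SE 0.83) and Stat3 at 1.15 (SE 0.30), with edgeR adjusted p-values of 0.0560 and 0.0626. Of 6 tested cytokine genes 0 were DEGs, all 6 had a positive fold change and the median was 2.79. Of the 8 listed, 1 had enough counts when the vehicle groups alone were compared. The others passed the low-count filter only with counts of Col mice, so their direction and median are not read as a result. Il6, the main inducer of hepatic acute-phase genes, had 3 counts in all vehicle-treated mice, and its ratio of summed counts was 69.6 (counting interval 23.6 to 339, edgeR adjusted p = 0.0854). Il1b was at 3.10 (SE 1.08, edgeR adjusted p = 0.0993). Hmox1, haem oxygenase 1, which degrades haem downstream of haptoglobin's ligand, was the 1 of 7 haem-handling genes that was up-regulated, at 4.41 (SE 0.69, edgeR adjusted p = 0.0393).

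**Figure D3:**
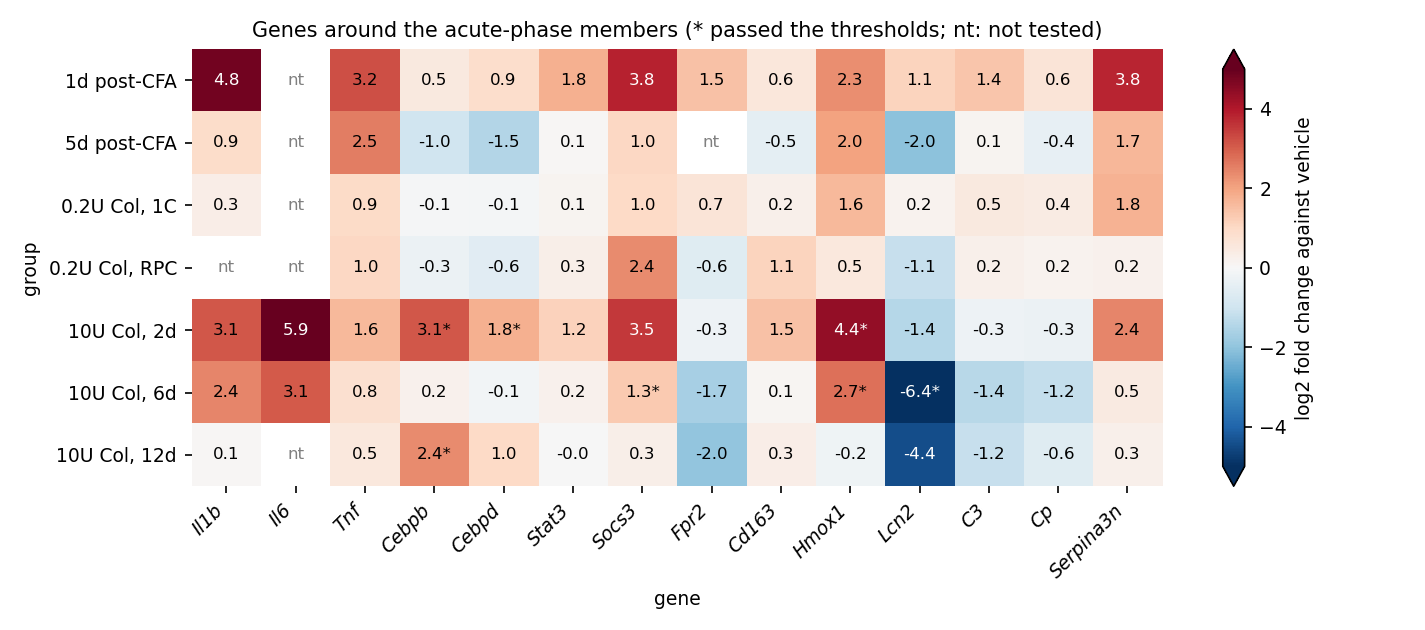
Log2 fold change against vehicle (edgeR, colour and number) of 14 fixed genes of the acute-phase response in columns, with the 7 treated groups in rows. An asterisk marks a DEG and nt a gene with too few counts for the test, and Cebpb is a DEG at 2d (3.10) and 12d post-Col (2.37), Socs3 at 6d (1.31), and Hmox1 at 2d (4.41) and 6d (2.75).

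At 6d post-Col (10U), Hp was down-regulated, Ptx3 lay within the spread of its vehicle-treated mice and Saa3 was close to the floor. Hp was at 17.5, 9.93 and 23.1 CPM against 31.03, 48.5 and 112 CPM, the lowest group mean of the series at 16.8 ± 6.60 CPM (SD, n = 3) against 63.7 ± 42.4 CPM (n = 3). The groups did not overlap, and the log2 fold change was −1.95 (SE 0.52, edgeR adjusted p = 0.0310). The call was lost without any 1 of the Col mice, with edgeR adjusted p-values of 0.0585 to 0.114, while the log2 fold change stayed between −2.29 and −1.26. Hp was the 1 DEG of 2 tested members, where 15.6% of all tested genes were DEGs.

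Saa3 was at 0.172, 0.821 and 0.290 CPM at 6d post-Col (4, 24 and 7 counts), above the 0 counts of all vehicle-treated mice and at least 2.76-fold higher than the floor on average, but at least 1.49-fold without replicate 2. It did not have enough counts for the filtered test. With no filter on low counts its edgeR adjusted p was 0.0279, and 0.129 in 1 fit over all libraries, with a mean of 0.806 RPKM, below the RPKM criterion for a DEG. Ptx3 was at 12.9, 8.69 and 9.499 CPM, with a log2 fold change of 0.01 (SE 0.25, edgeR adjusted p = 0.973). Saa1 was at 0 to 0.137 CPM, at most 4 counts, and Saa2 at 0 to 0.0830 CPM, at or below the floor.

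Other cell type markers fell together with Hp at 6d post-Col. Of 9 neutrophil markers 8 were tested and 5 were down-regulated, Camp, Ltf, S100a9, Ngp and S100a8, and their sum was 14.3 to 19.3 CPM against 364, 14.9 and 1499 CPM. Of 7 adipocyte markers 3 were down-regulated, Retn, Cfd and Lep, and the sum was 248 to 406 CPM against 393 to 673 CPM. Of 5 tested epithelial markers 3 were down-regulated, with a sum of 9.32 to 40.0 CPM against 14.3, 258 and 56.8 CPM, and all 3 tested salivary gland markers were. Macrophage and monocyte markers moved the other way, with 6 of 8 up-regulated and a sum of 1004 to 1957 CPM against 89.1 to 422 CPM. Of 8 skeletal muscle markers 3 were down-regulated, with a sum of 35940 to 60640 CPM against 95886 to 142470 CPM. No marker of these lists was at 0 in a whole group. The vehicle-treated mouse with the most Hp was also the one with the most neutrophil marker RNA, and the part of any of these cells in the fall of Hp was not tested.

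The other acute-phase genes moved in both directions at 6d post-Col. Of 12 tested genes 3 were up-regulated and 2 down-regulated, at a median log2 value of 0.62, all genes being at 0.01. Orm2, orosomucoid 2, had 2 counts in the vehicle-treated mice and 539 at 6d, a ratio of 212 (counting interval 58.5 to 1757, edgeR adjusted p = 0.00299). Orm2 passed the low-count filter through its Col mice alone, so that only a difference could have brought it into the test. Mt1 and Mt2 were the other 2 that rose. Lbp, lipopolysaccharide binding protein, fell by 1.07 on the log2 scale (SE 0.19, edgeR adjusted p = 0.0103), and Lcn2, lipocalin 2, which neutrophils and epithelium make, fell by 6.38 (SE 1.39, edgeR adjusted p = 0.0178). C3 at −1.38 (SE 0.52) and Cp, ceruloplasmin, at −1.18 (SE 0.39) did not pass, with edgeR adjusted p-values of 0.0831 and 0.0590.

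Some genes that handle the ligands of haptoglobin and pentraxin 3 rose at 6d post-Col, where 15.6% of all tested genes were DEGs in either direction. Of 7 haem-handling genes 2 were up-regulated, Hmox1 at 2.75 (SE 0.39, edgeR adjusted p = 0.00515) and Ftl1, ferritin light chain, at 1.61 (SE 0.26, edgeR adjusted p = 0.00774). Cd163, the macrophage receptor for haptoglobin bound to haemoglobin, was at 0.09 (SE 0.47, edgeR adjusted p = 0.902). Of 8 tested pentraxin 3 partners 3 were up-regulated, the C1q chains C1qa, C1qb and C1qc, with C1qb at 2.89 (SE 0.34, edgeR adjusted p = 0.00292). Of 7 tested serum amyloid A receptor genes 1 was up-regulated, Tlr2 at 1.97 (SE 0.43, edgeR adjusted p = 0.0178), and Fpr2 was at −1.65 (SE 1.10, edgeR adjusted p = 0.281). Of 9 transcription factor and feedback genes 3 were up-regulated, Nfkb2, Socs3 and Nfkbiz, at 1.27 to 1.31.

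From 2d to 6d post-Col (10U), Hp and Ptx3 were lower on average at the later day, and so was Saa3. Saa3 passed the low-count filter through its 2d mice alone, so its direction and its calls in this comparison are not read as a result. Hp fell by 2.35 on the log2 scale (SE 0.59, edgeR adjusted p = 0.0482), the 1 DEG of 3 tested members, where 5.37% of all genes were DEGs. Saa3 was at −3.55 (SE 0.91, edgeR adjusted p = 0.0516) and Ptx3 at −1.24 (SE 0.62, edgeR adjusted p = 0.245). Without replicate 4 at 2d, Saa3 at −3.91 and Ptx3 at −1.58 were DEGs too, with edgeR adjusted p-values of 0.00193 and 0.0172. This was the only 1 of 7 such fits in which either passed. Over these fits Saa3 ranged from −4.42 to −3.17 and Ptx3 from −1.58 to −0.69, with edgeR adjusted p-values up to 0.191 and 0.509. The call of Hp was lost without replicate 1 or 2 at 2d or without any 1 mouse at 6d, with edgeR adjusted p-values from 0.0786 to 0.193.

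At 12d post-Col (10U), no member was a DEG among the 2 tested, where 0.804% of all tested genes were. Hp was at 29.4, 71.8, 17.7 and 13.1 CPM, with 3 of 4 mice below all vehicle-treated mice and a log2 fold change of −0.95 (SE 0.64, edgeR adjusted p = 0.474). Ptx3 was at 11.8, 13.3, 12.7 and 11.2 CPM, a narrow group within the spread of vehicle apart from 1 mouse slightly above it, with a log2 fold change of 0.30 (SE 0.20, edgeR adjusted p = 0.464). Saa3 was at 0.192, 0, 0 and 0.407 CPM (4, 0, 0 and 9 counts), and Saa1 was at 0.0539 to 0.245 CPM. Of the listed upstream genes only Cebpb was a DEG, at 2.37 (SE 0.36, edgeR adjusted p = 0.0232). From 6d to 12d, Hp was at 0.98 (SE 0.59) and Ptx3 at 0.26 (SE 0.17), with edgeR adjusted p-values of 0.230 and 0.269, and neither of the 2 was a DEG, where 10.0% of all genes were.

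**Figure D4:**
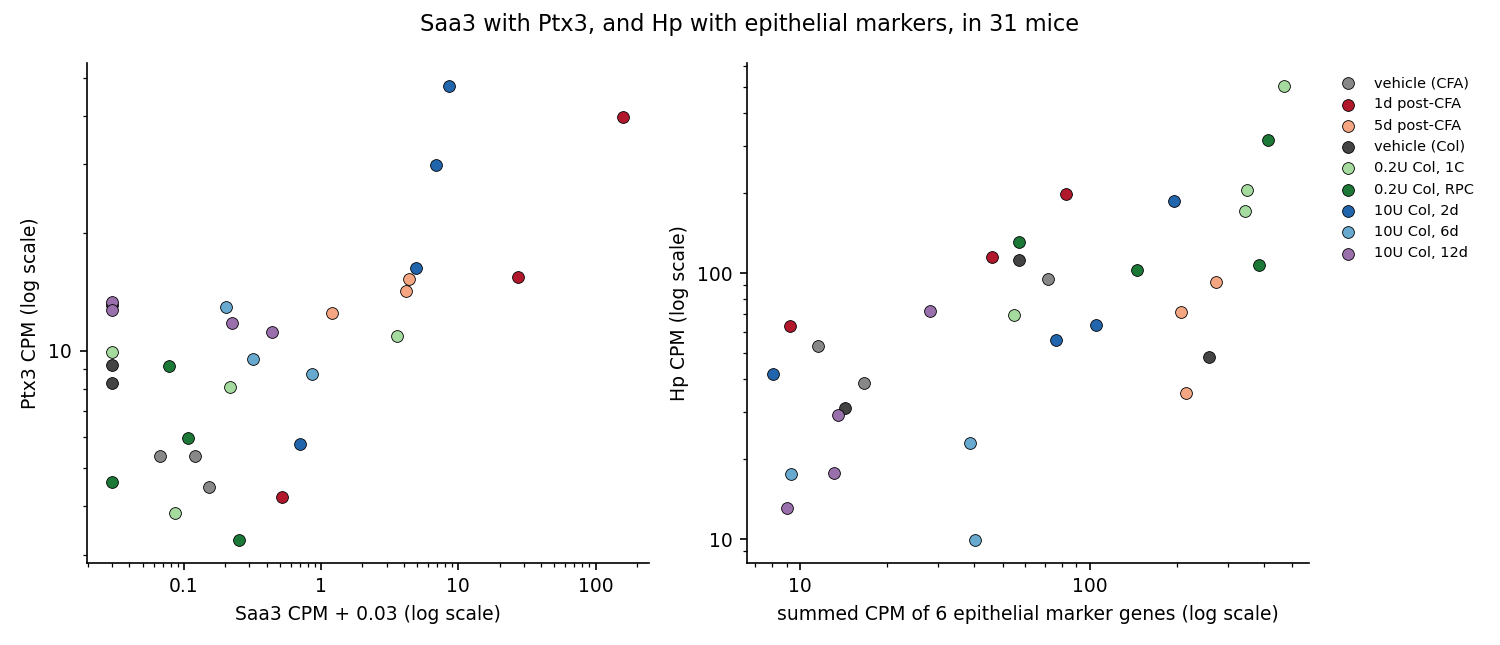
Left, Ptx3 against Saa3 (CPM, with 0.03 added for Saa3), and right, Hp against the summed CPM of 6 epithelial markers, on logarithmic axes with 1 point per mouse coloured by group. The highest Saa3 is in replicate 1 at 1d post-CFA (159 CPM, with Ptx3 at 39.7 CPM), the highest Ptx3 in replicate 3 at 2d post-Col (47.7 CPM), and the highest Hp in the group 1C mouse with the highest epithelial sum (505 and 468 CPM).

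Whether the response of a member differed between inflammation and tissue damage was tested as the difference of the changes against each experiment's own vehicle-treated mice. Between 1d post-CFA and 2d post-Col (10U), none of 4 tested members was a DEG, where 0.0946% of all tested genes were. The difference on the log2 scale was 4.35 for Saa1 (SE 2.10, edgeR adjusted p = 0.723) and −0.38 for Saa3 (SE 1.31, edgeR adjusted p = 0.951), and neither passed the test. Between 5d post-CFA and 6d post-Col, 1 of 3 tested members passed, where 9.92% of all tested genes did. Ptx3 changed by 1.498 more after CFA (SE 0.31, edgeR adjusted p = 0.0153), Hp was at 2.07 (SE 0.76, edgeR adjusted p = 0.0990) and Saa3 at −1.04 (SE 0.97, edgeR adjusted p = 0.512). Both differences for Saa3 depend on the prior count, because Saa3 was at 0 counts in every Col vehicle mouse. Its log2 fold change at 2d post-Col was 9.74 in the main fit and 6.69 with both vehicle groups pooled. These differences therefore cannot show whether Saa3 changed equally after CFA and Col. The days of each pair were not the same, and the Ptx3 values of the 2 vehicle groups did not overlap, although their difference did not pass edgeR's test.

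The vehicle-treated mice of the 2 experiments were compared for this reason. Ptx3 was at 4.48 to 5.38 CPM in the CFA experiment and at 8.28 to 13.1 CPM in the Col experiment, without overlap, and the log2 difference was −1.02 (SE 0.27, unadjusted p = 0.00671, edgeR adjusted p = 0.918). The 5d post-CFA mice, at 12.5 to 15.2 CPM, were thus next to vehicle-treated mice of the Col arm. Hp was at 62.4 ± 29.4 and 63.7 ± 42.4 CPM (SD, n = 3 each), with overlapping mice and a difference of −0.05 (SE 0.53, unadjusted p = 0.924 in edgeR's test across all genes). None of the 2 tested members was a DEG, where 0.0355% of all tested genes were. Whether batch or another difference between the experiments set the level of Ptx3 was not tested.

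Over the 9 groups, the order of the mean level of Saa3 was 1d post-CFA (62.1 CPM), 2d post-Col (5.25 CPM), 5d post-CFA (3.21 CPM), group 1C (0.9498 CPM), 6d post-Col (0.428 CPM) and the other 4 groups at 0.150 CPM or less. The mice of 2d post-Col, 0.667 to 8.54 CPM, and of 5d post-CFA, 1.17 to 4.33 CPM, overlapped, as did those of 1d post-CFA with both. The order for Hp was group 1C (238 CPM), group RPC (164 CPM), 1d post-CFA (126 CPM), 2d post-Col (87.1 CPM), 5d post-CFA (66.5 CPM), the vehicle groups (63.7 and 62.4 CPM), 12d post-Col (32.996 CPM) and 6d post-Col (16.8 CPM). Each neighbour in this order overlapped with the next in the values of single mice. For Ptx3 the order was 2d post-Col (24.9 CPM), 1d post-CFA (19.8 CPM), 5d post-CFA (13.97 CPM), 12d post-Col (12.3 CPM), 6d post-Col (10.4 CPM), vehicle of the Col experiment (10.2 CPM), group 1C (8.17 CPM), group RPC (5.75 CPM) and vehicle of the CFA experiment (5.08 CPM). These neighbours overlapped as well.

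The genes whose pattern over the 31 libraries was most like that of each member were named by Pearson's r of log2(CPM + 0.5), among 15526 genes, as a description. The libraries share their groups and the few mice with high values, so these values carry no test. For Saa1 they were Saa2 (0.93), Serpina3m (0.92), Irg1 (0.90), Cdh16 (0.89) and Stat3 (0.84), and for Saa2 they were Saa1 (0.93), Serpina3m (0.88), Irg1 (0.87), Cdh16 (0.85) and B230314j19 (0.82). For Saa3 they were Irg1 (0.91), Stat3 (0.90), Cxcl2 (0.90), Card14 (0.89) and Cdh16 (0.88). By Spearman's rho none of the 5 nearest genes of Saa1, Saa2 or Saa3 was the same, and Saa1 and Saa2 themselves had a rho of 0.43.

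The lists of Hp and Ptx3 were different from those of the serum amyloid A genes. For Hp they were Lipg (0.83), Fgfbp1 (0.83), F5 (0.82), Art4 (0.81) and Hsd17b4 (0.80), of which Lipg was also among the 5 nearest by rho. For Ptx3 they were Stx7 (0.81), Ecscr (0.81), Trp53i11 (0.80), Il6 (0.80) and Mcl1 (0.79), of which all but Il6 were among the 5 nearest by rho. Among the members, Saa3 and Ptx3 had an r of 0.71 and a rho of 0.49, and Hp and Ptx3 an r of −0.28 and a rho of −0.27. Hp had an r of 0.69 with the summed epithelial markers, 0.62 with adipocyte, 0.59 with neutrophil and 0.58 with hepatocyte markers. With brown adipocyte markers Hp was at 0.55 and with salivary gland markers at 0.53. Saa3 had an r of −0.47 with adipocyte, −0.39 with brown adipocyte and 0.34 with macrophage and monocyte markers. Ptx3 was further from 0 for the same lists, at −0.55, −0.48 and 0.41.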

How the data were processed

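RNA-seq of MM from 31 mice was analysed, 1 library per mouse. From poly(A) RNA the authors prepared stranded libraries, read 50 bases from 1 end, mapped the reads to mm9 with TopHat2 and deposited raw counts per gene symbol. The submitters' processing notes also name HTSeq and bcl2fastq. Versions and the strand setting of the counting are not given in the sources used here. Lines for unassigned reads were kept out of library sizes, and reads aligned to more than 1 place were 34.6 to 47.9% of each library's listed reads.

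The test was that of edgeR 4.0.16 under R 4.3.3 (quasi-likelihood test on the groups compared, TMM, genes with at least 10 counts in 3 libraries, Benjamini-Hochberg adjustment over all tested genes). Each SE was derived from the fold change and its F statistic, as |log2 fold change| over the root of F. RPKM used GENCODE vM1 exon lengths, matched for 21627 symbols directly and 90 by a synonym, and the median length of 2842 bp was used for 892 others. DEGs needed an adjusted p under 0.05, a fold over 2 and, except for differences of changes, a mean RPKM over 1 in a compared group. Counting intervals are exact at 95%, and intervals and floors cover counting error only. RefSeq promoter entries matched 4 of 5 members. Replicate numbers name different mice. Same-numbered mice deviated together at 1d post-CFA and vehicle (every r over 0.1, mean 0.338) and between the vehicle groups (mean 0.332), and there the replicate block changed no call of a member. No pair of the 465 library pairs was identical. The code was checked on simulated data.

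The members and gene lists were chosen with earlier results of these data known. Named genes were the members, 15 fixed genes of the acute-phase response, in each other list at most the 2 genes with the smallest p against vehicle (genes called in a list were named after their values were seen), and the 5 genes with the highest r with each member. Alternatives were DESeq2 1.42.0 and its size factors, no low-count filter, no RPKM threshold, 1 fit over all libraries, pooled vehicle groups, the replicate block, Saa1 and Saa2 summed, Spearman's rho and each mouse left out.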

Additional observations from a re-analysis of the deposited data

Results flagged for a closer look

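Single mice stood far from the rest of their group in 5 of 18 sets that were tested. Each set was 1 member in 1 group of 4 mice, and the gap to the nearest mouse exceeded Dixon's 95% critical value. That value is set for normally distributed values, whereas CPM of the serum amyloid A genes was near the floor in most mice. The number of sets is therefore not read against a chance rate. Replicate 3 of group 1C was at 0.584 CPM for Saa2 and 3.56 CPM for Saa3, and replicate 3 at 2d post-Col was at 0.267 CPM for Saa2, which is 6 counts. Hp was at 316 CPM in replicate 3 of group RPC and at 186 CPM in replicate 4 at 2d post-Col. Groups of 3 mice, which include 1d post-CFA, were too small for this.

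The change of Ptx3 differed between 5d post-CFA and 6d post-Col by 1.498 on the log2 scale (edgeR adjusted p = 0.0153). In 6 other pairs of groups every mouse of one was above and every mouse of the other below the mean of its own vehicle-treated mice, and these differences were not tested. As mean log2(CPM + 0.5) changes they were 3.44 for Saa1 and 2.82 for Hp at 1d post-CFA minus 6d post-Col, 3.52 and 3.16 for Hp in groups 1C and RPC minus 6d post-Col, 2.23 for Ptx3 at 5d post-CFA minus group RPC, and −1.11 for Ptx3 in group RPC minus 12d post-Col.

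Among the reads that no gene received, the ambiguous share was at least 0.331% in every 10U library, against 0.0899 to 0.115% in the vehicle-treated mice of the same experiment. Its part in the 10U comparisons was not tested.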

How the results depend on the processing

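Over all alternatives, 419 of 488 values of members kept their direction and their side of the adjusted p of 0.05, 27 left it, 14 passed it newly, 23 changed sign, and the other 5 were lists of like genes. DEGs among members numbered 1 at 1d post-CFA with DESeq2 (0 in edgeR's test). At 5d post-CFA they numbered 0 in 1 fit over all libraries, 1 with the replicate block (Ptx3, as Saa3 had an adjusted p of 0.0507) and 0 with pooled vehicle groups, against 2. At 2d post-Col they numbered 2 with the block and 2 with pooled vehicle groups, where Ptx3 joined Saa3, against 1. For 5d against 1d post-CFA they numbered 1 with DESeq2 and 1 in 1 fit (Saa1), against 0, and for 6d against 2d post-Col 2 with DESeq2 and 2 with the block (Saa3 joined Hp), against 1. For the late difference of changes they numbered 2 with DESeq2 (Hp joined) and 0 in 1 fit, against 1. With each mouse left out they ranged from 0 to 2 at 5d post-CFA, 0 to 2 at 2d, 0 to 1 at 6d, 0 to 2 for 5d against 1d post-CFA, 0 to 3 for 6d against 2d and 1 to 2 for the late difference. The cause was not tested.

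Changes of sign were seen for Ptx3, Hp and Saa3, not all of them at small values. Ptx3 was at 0.14 in group 1C with pooled vehicle groups, at −0.0028 and −0.0035 at 6d post-Col with DESeq2 and its size factors, and at 0.0061 for 5d against 1d post-CFA with the block. Hp was at −0.0751 at 2d post-Col and 0.0484 between vehicle groups with the block, and the early difference of changes was 0.45 for Saa3 with DESeq2. With each mouse left out, Hp ranged from −0.20 to 0.61 at 5d post-CFA, from −0.30 to 1.11 at 2d post-Col and from −0.54 to 0.66 between vehicle groups. Ptx3 ranged from −0.17 to 0.19 at 6d post-Col and from −0.97 to 0.49 for 5d against 1d post-CFA. The early differences of changes ranged from −2.45 to 0.20 for Saa3, −0.0596 to 1.30 for Hp and −0.23 to 1.27 for Ptx3.

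Same-numbered mice share only a number outside the 2 comparisons named in the methods (lowest r −0.391 to −0.0300), and the block changed no call of a member other than those given. Counts of all DEGs, which set the adjusted p of the members, moved more. DESeq2 gave 53 at 1d post-CFA (0), 537 at 5d (129), 299 and 152 in groups 1C and RPC (0 and 0), 1821 at 2d post-Col (254), 387 at 12d (114), 914 for 5d against 1d post-CFA (591), 1290 for 6d against 2d (780), 37 between vehicle groups (5) and 105 for the early difference (14). Its size factors gave 54 at 5d post-CFA. The block gave 1 at 1d post-CFA, 1 and 9 in the 0.2U groups, 2833 at 2d, 1239 at 6d (2223), 41 at 12d, 1229 for 6d against 2d, 2760 for 12d against 6d (1437), 0 between vehicle groups and 157 for the early difference. One fit gave 31 at 5d post-CFA, 106 in group 1C, 2004 at 2d, 287 at 12d, 30 between vehicle groups and 92 for the early difference, and pooled vehicle groups gave 0, 180, 12, 2188 and 184 at 5d post-CFA, in groups 1C and RPC, at 2d and at 12d. By rho, 0 of the 5 genes most like Saa1, Saa2 and Saa3, 1 for Hp and 4 for Ptx3 stayed. Depth limits Saa1, Saa2, Saa3 and Saa4, which were at 3 counts or fewer in many libraries.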
